A study of Mus musculus with 16 samples.

Results

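The 10 genes described here are the claudins Cldn1, Cldn2, Cldn3, Cldn4, Cldn7, Cldn8, Cldn15 and Cldn23, the junctional membrane protein occludin (Ocln), and Tjp1, the scaffold also called zonula occludens protein. They were chosen by name, as every probe whose gene name in the scanner files is one of these symbols. This gave 14 of the 55681 probes on the array, and 9 members, all but Cldn1, were measured well enough to enter the tests, among 24541 genes in all. All 16 mice were ApcMin/+, a strain with 1 mutated copy of the tumour suppressor Apc that forms intestinal tumours. The 6 mice of the 5-ASA group drank dextran sulphate sodium (DSS, 1.5% w/v), which injures the colonic epithelium, over 3 days, and were dosed with 5-aminosalicylic acid (5-ASA), an anti-inflammatory drug. The 6 Control mice had the same DSS course and saline, and the 4 Sham mice drank plain water. One field of the labels places the dosing in the colorectum for 28 days, while another has it in the drinking water once DSS had ended, with plain water for Control. Colon judged by eye to be free of tumour was taken from each mouse on day 28 and hybridised to 1 array.

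Tight junctions seal the space between neighbouring epithelial cells and set which ions, and how much water, pass through it. Claudins form their strands: some, such as Cldn2 and Cldn15, form channels, and others, such as Cldn1, Cldn3, Cldn4 and Cldn8, are known mainly for tightening the seal. Occludin lies in the same strands and Tjp1 ties them to the actin cytoskeleton, and in human inflammatory bowel disease more CLDN2 and less of several sealing claudins have been described.

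No difference of the 9 members between groups exceeded the spread between mice once all genes were taken into account. At an adjusted p of 0.05 in limma (Benjamini-Hochberg over 24541 genes), 0 of 9 members passed for Control against Sham, where 0.053% of all genes did. The count was 0 of 9 for 5-ASA against Control, where 0% of genes passed, and 0 of 9 for 5-ASA against Sham, where 0.053% passed. At an unadjusted p under 0.05, 1 of 9 members (Ocln) passed for Control against Sham, beside 8.87% of all genes. For 5-ASA against Control it was 0 of 9, beside 4.08%, and for 5-ASA against Sham 2 of 9 (Cldn15 and Tjp1), beside 10.9%. For no member did the mice of one group all lie above or below those of another, where 3.32%, 0.134% and 1.79% of all genes did so in the 3 comparisons. The median difference over the 9 members was -0.02, -0.06 and -0.09 in the same order, on the log2 scale, against -0.00173, -0.00168 and -0.00341 over all genes. All levels below are log2 intensity relative to the 75th percentile of the same array, and all differences are between such log2 levels. The number of mice and the spread between them limit the precision: over all genes, the median SE of a difference was 0.161 where Sham was one of the groups and 0.144 between the DSS groups.

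**Figure D1:**
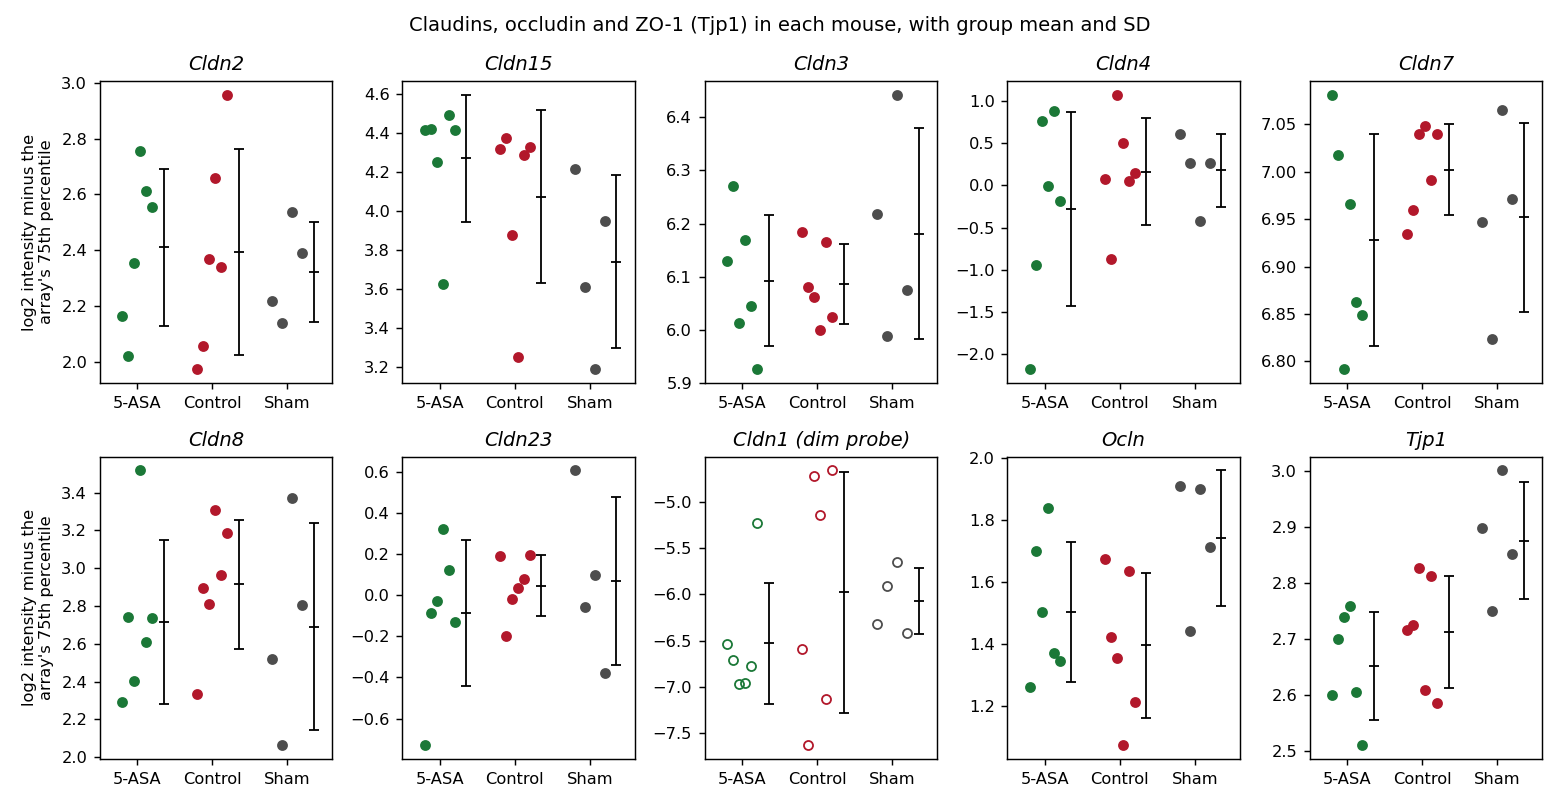
Levels of the 10 members (log2 intensity minus the 75th percentile of the array, each panel with its own axis) in each mouse, with the 5-ASA, Control and Sham mice from left to right and the mean and SD of each group in black. Open circles mark Cldn1, whose probe rose well above background on a single array, and in every panel the 3 groups overlap.

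The arrays lay on 2 slides, each with 3 5-ASA, 3 Control and 2 Sham arrays, and differences within slide 1 and within slide 2 are given beside each pooled one. Within the slides, all 5-ASA mice and Control 3 and 6 lay in the second row of arrays, and the other Control mice and all Sham mice in the first. The share of spots well above background was 53.0% to 57.7% on 5-ASA arrays, 56.8% to 65.2% on Control arrays and 59.8% to 64.4% on Sham arrays. On any array 0 spots were saturated, and arrays correlated with r between 0.958 and 0.993. Epithelial markers were bright on all arrays, with the keratin Krt8 between 7.90 and 8.16 and the lectin Lgals4 between 8.15 and 8.54. Markers of squamous epithelium were mixed. The keratin Krt4 was well above background on 0 arrays, but Krt13, Krt14 and Trp63 were on 16 and Krt5 on 14. Of the 12 such markers on the array, 7 were tested. Krt6a, Sprr3, Sprr1b and Krtdap were, like Krt4, well above background on too few arrays, while Krt15, Dsg3 and Lor passed.

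Among the channel-forming members, Cldn15 was the one with the largest group difference. Cldn15, a sodium channel of the gut epithelium, ranged in 5-ASA mice from 3.63 to 4.49 with a median of 4.42. In Control mice it ranged from 3.25 to 4.38 with a median of 4.31, and in the 4 Sham mice it was 4.22, 3.61, 3.19 and 3.95. Of the 6 5-ASA mice, 5 lay above every Sham mouse and 5-ASA 4 among them, so the groups overlapped. The difference of 5-ASA against Sham was 0.53 (SE 0.25, 95% interval 0.0053 to 1.06), or 0.45 and 0.61 within the slides, and did not pass over all genes (adjusted p = 0.450 in limma). Control against Sham gave 0.33 (SE 0.25, adjusted p = 0.696 in limma), or 0.28 and 0.39 within the slides, and 5-ASA against Control 0.20 (SE 0.22, adjusted p = 0.999 in limma), or 0.17 and 0.22.

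The level of Cldn15 ran against those of B cell markers and of leukocyte markers in general. All 10 B cell markers had lower means in 5-ASA than in Sham mice, with a median difference of -2.06, against -0.00341 over all genes. Of these markers, 0 of 10 passed over all genes (lowest adjusted p = 0.340 in limma). Of them, Blk was well above background in 0 of 6 5-ASA, 1 of 6 Control and 3 of 4 Sham mice, and the share of all spots well above background was also lower on every 5-ASA array than on any Sham array. The summed log2 level of these markers ranged from 0.98 to 1.91 in 5-ASA mice, from 1.05 to 5.35 in Control mice and from 0.85 to 5.17 in Sham mice. Within groups, Cldn15 correlated with the B cell level at r = -0.66 over 16 arrays. It was much the same with the leukocyte level (r = -0.67), and r was -0.54 with the neutrophil level, so the relation was not particular to B cells. Sham 1, the Sham mouse with the lowest B cell level, had the highest Cldn15 of that group. With the B cell level as a covariate, a setting chosen after the data were seen, the difference of 5-ASA against Sham was 0.11 (SE 0.23, adjusted p = 0.850 in limma). In such bulk tissue, fewer cells of a type and less RNA per cell cannot be told apart.

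Cldn2, a cation and water channel best known from crypt epithelium, had group means within 0.09 of each other. It ranged from 2.02 to 2.75 with a median of 2.45 in 5-ASA mice and from 1.97 to 2.96 with a median of 2.35 in Control mice. In Sham mice it was 2.22, 2.14, 2.54 and 2.39. The Sham values lay inside the range of both DSS groups. The difference was 0.07 (SE 0.19, 95% interval -0.33 to 0.47) for Control against Sham, -0.05 and 0.19 within the slides. It was 0.02 (SE 0.17, interval -0.34 to 0.38) for 5-ASA against Control, 0.05 and -0.01 within the slides, and 0.09 (SE 0.19, interval -0.31 to 0.49) for 5-ASA against Sham, 0.002 and 0.18 within the slides. Differences from -0.34 to 0.49 lie inside at least 1 of these intervals. The spread of Cldn2 over mice was wider than its group differences: the highest mouse, Control 6, was 1.98-fold above the lowest, Control 1. Its second probe varied alike over the mice, with r = 0.948 between the probes over 16 arrays.

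**Figure D2:**
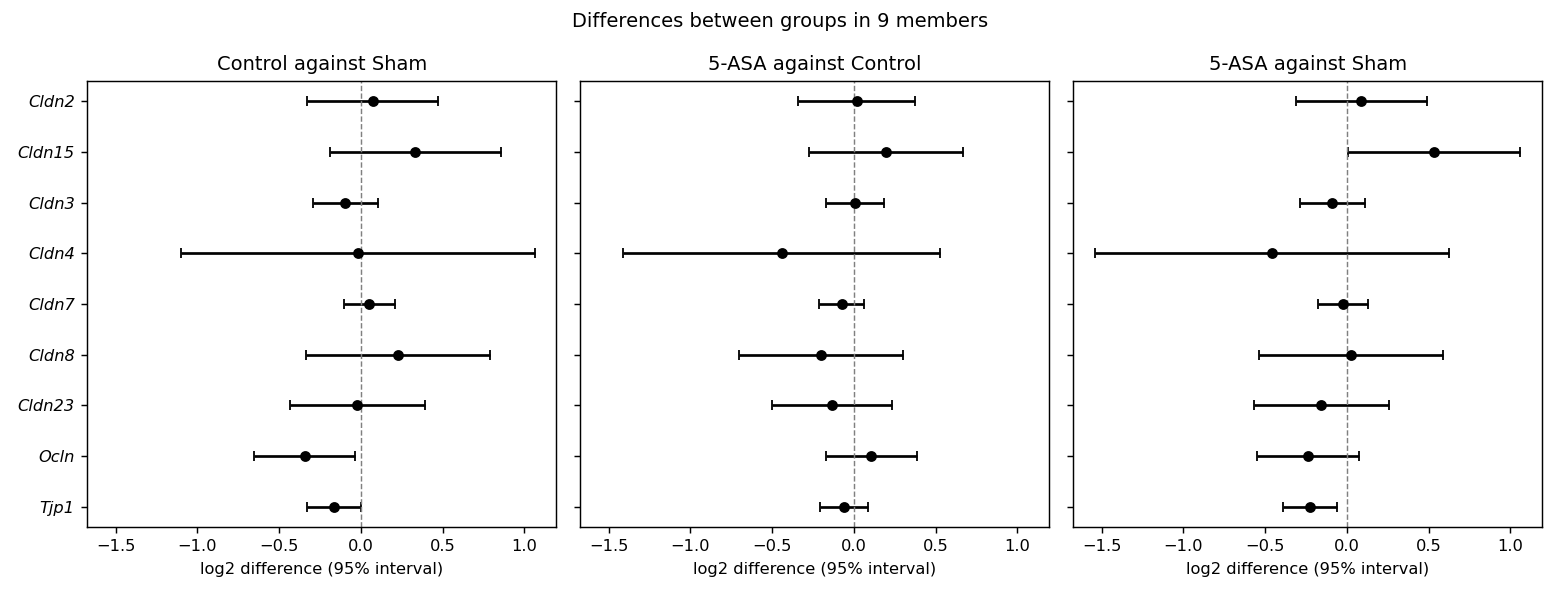
Difference in log2 level of the 9 tested members between groups (points) with its 95% interval, not adjusted for the number of genes, for Control against Sham, 5-ASA against Control and 5-ASA against Sham. The intervals of Cldn4 are the widest, those of Cldn7 and Tjp1 the narrowest, and the 3 that leave out 0 are Ocln for Control against Sham and Cldn15 and Tjp1 for 5-ASA against Sham.

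Among the sealing members, Cldn3 and the brighter probe of Cldn7 were nearly constant over the 16 mice. Cldn7, a claudin of the basolateral membrane that is abundant in colon, ranged from 6.79 to 7.08 with a median of 6.91 in 5-ASA mice and from 6.93 to 7.05 with a median of 7.02 in Control mice. In Sham mice it was 6.95, 6.82, 7.07 and 6.97. The highest mouse was 1.22-fold above the lowest, and the SD within groups, 0.09, was matched or undercut by 3% of all tested genes. Its spots ranged from 114421 to 149244 intensity units and were not saturated. The differences were 0.05 (SE 0.07) for Control against Sham, -0.07 (SE 0.07) for 5-ASA against Control and -0.02 (SE 0.07) for 5-ASA against Sham, and each 95% interval lay between -0.21 and 0.21. Within the slides they were 0.09 and 0.01, -0.01 and -0.13, and 0.08 and -0.13. The second Cldn7 probe, which is annotated to another transcript, tracked the first with r = 0.588. It was less bright but well above background on all 16 arrays. Its mean was -1.58 (SD 0.20) in Sham, -1.24 (SD 0.34) in Control and -1.44 (SD 0.40) in 5-ASA mice. In the order of comparisons used above, its differences were 0.34, -0.20 and 0.14. They were larger in size than those of the first probe, and the last had the opposite sign. They were not tested on their own.

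Cldn3, a sealing claudin, ranged from 5.93 to 6.27 with a median of 6.09 in 5-ASA mice and from 6.0 to 6.18 with a median of 6.07 in Control mice. In Sham mice it was 6.22, 5.99, 6.44 and 6.07, so that the Sham mice spanned the whole range of the Control mice. The SD within groups was 0.13, and 14.7% of genes had an equal or smaller one. Control against Sham gave -0.09 (SE 0.09, 95% interval -0.29 to 0.10), or 0.01 and -0.20 within the slides. 5-ASA against Control gave 0.01 (SE 0.08), or 0.03 and -0.02, and 5-ASA against Sham -0.09 (SE 0.09), or 0.03 and -0.21.

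Cldn4 behaved in the opposite way and was the most variable member. This claudin, a sealing claudin of surface epithelium and a receptor of a Clostridium perfringens enterotoxin, ranged in 5-ASA mice from -2.19 to 0.88 with a median of -0.09. In Control mice it ranged from -0.87 to 1.08 with a median of 0.11, and in Sham mice it was 0.62, 0.26, -0.42 and 0.26. The highest mouse, Control 3, was 9.59-fold above the lowest, 5-ASA 1, and 93.9% of genes had an equal or smaller SD within groups. Its 2 probes, 788 bases apart on mm9, varied alike over the mice, with r = 0.992 over the 16 arrays. The probe at chr5:135422135-135422194, on the minus strand of mm9, is printed because the spread of Cldn4 was seen with this stretch as well as with the other.
Cldn4 probe: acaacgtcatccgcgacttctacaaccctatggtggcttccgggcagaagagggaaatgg
The difference of 5-ASA against Control was -0.44 (SE 0.45, 95% interval -1.41 to 0.53, adjusted p = 0.999 in limma), or -0.88 and -0.004 within the slides, and -0.06 without 5-ASA 1. 5-ASA against Sham gave -0.46 (SE 0.51), or -1.23 and 0.31 within the slides and -0.08 without 5-ASA 1. Control against Sham gave -0.02 (SE 0.51), or -0.35 and 0.31 within the slides. For this gene all 3 intervals reach beyond 0.5 on both sides, so that such differences were not detectable with these mice.

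**Figure D3:**
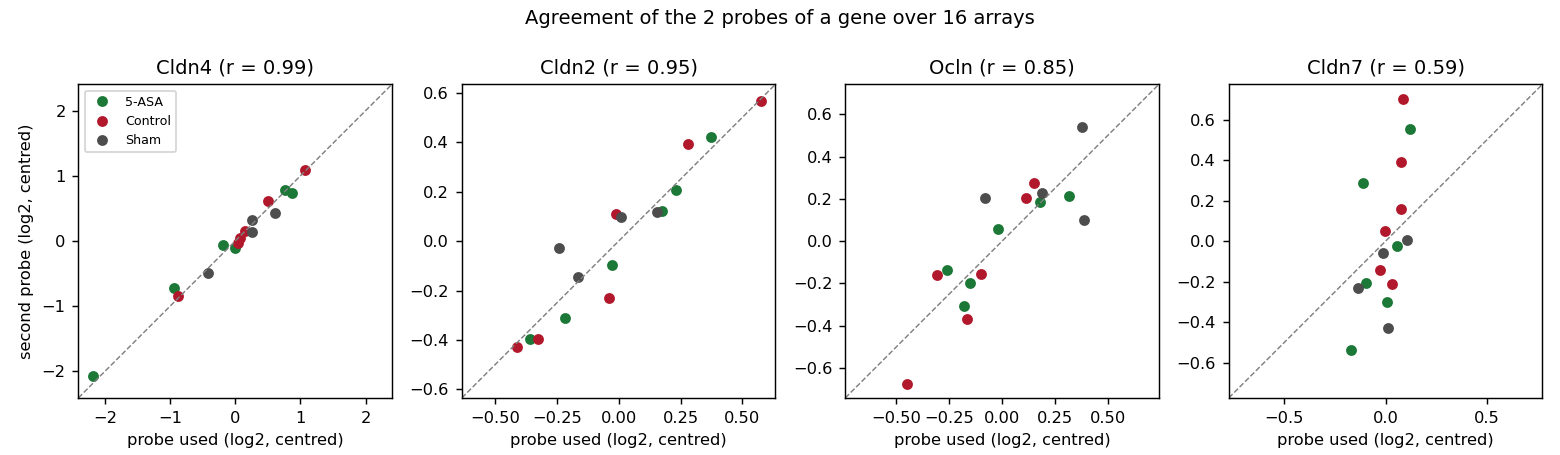
Values of the second probe of a gene against those of the probe used, each minus its own mean over the 16 arrays (log2), for Cldn4, Cldn2, Ocln and Cldn7, with the line of equality. For Cldn4, Cldn2 and Ocln the points follow the line (r = 0.992, 0.948 and 0.853), while the probe used for Cldn7 hardly varies.

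Cldn8, a sealing claudin of the distal colon, ranged in 5-ASA mice from 2.29 to 3.52 with a median of 2.67, and in Control mice from 2.33 to 3.31 with a median of 2.93. In Sham mice it was 2.52, 2.06, 3.37 and 2.81. Its differences were 0.23 (SE 0.26) for Control against Sham, 0.39 and 0.06 within the slides, and -0.20 (SE 0.24) for 5-ASA against Control, -0.20 and -0.20 within the slides. For 5-ASA against Sham the difference was 0.03 (SE 0.26), 0.19 and -0.13 within the slides. Cldn8 was highest in 5-ASA 4, Sham 3 and Control 4, and each of these mice had the lowest Cldn15 of its group (3.63, 3.19 and 3.25).

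Cldn23, a claudin of differentiated surface colonocytes, ranged from -0.73 to 0.33 with a median of -0.06 in 5-ASA mice and from -0.20 to 0.20 with a median of 0.06 in Control mice. In Sham mice it was 0.61, -0.06, 0.10 and -0.38. Its differences were -0.02 (SE 0.19) for Control against Sham, -0.13 (SE 0.17) for 5-ASA against Control and -0.16 (SE 0.19) for 5-ASA against Sham. Within the slides they were -0.28 and 0.24, -0.27 and 0.003, and -0.56 and 0.24, with opposite signs on the 2 slides.

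Cldn1, a claudin that is essential to the skin barrier and scarce in normal colon, was not tested. Only in Control 4, at -5.15, was the signal of its probe well above background. The dim values ranged from -6.97 to -5.23 in 5-ASA mice and from -7.63 to -4.66 in Control mice, and were -6.32, -5.91, -5.66 and -6.42 in Sham mice. Control 6, Control 3 and Control 4 had the 3 highest values of the series (-4.66, -4.73 and -5.15), but Control 3 and Control 6 were not well above background.

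Occludin was the member with the smallest p for Control against Sham. Ocln, a strand protein with 4 membrane spans that is a regulator more than a builder of the seal, ranged in 5-ASA mice from 1.26 to 1.84 with a median of 1.44. In Control mice it ranged from 1.08 to 1.67 with a median of 1.39, and in Sham mice it was 1.91, 1.44, 1.90 and 1.71. Of the 4 Sham mice, 3 lay above every Control mouse, and Sham 2 lay among them. Control against Sham gave -0.34 (SE 0.15, 95% interval -0.65 to -0.04), or -0.19 and -0.50 within the slides, and did not pass over all genes (adjusted p = 0.561 in limma). 5-ASA against Sham gave -0.24 (SE 0.15, adjusted p = 0.588 in limma), or -0.19 and -0.29 within the slides. 5-ASA against Control gave 0.11 (SE 0.13, adjusted p = 0.999 in limma), or 0.01 and 0.21. Its second probe differed by -0.41 for Control against Sham and by -0.30 for 5-ASA against Sham, in the same direction.

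The difference in Ocln took other sizes with marker levels of the tissue as covariates. All 10 proliferation genes had higher means in Control than in Sham mice, with a median difference of 0.66, against -0.00173 over all genes. Of these genes, 0 of 10 passed over all genes (lowest adjusted p = 0.561 in limma). Their summed log2 level ranged from 5.76 to 7.36 in 5-ASA mice, from 6.17 to 6.87 in Control mice and from 5.63 to 6.01 in Sham mice. With the proliferation level as a covariate, a setting chosen after the data were seen, Control against Sham gave -0.14 (SE 0.15) and 5-ASA against Sham 0.02 (SE 0.15). That level did not overlap between Control mice (-0.26 to 0.56) and Sham mice (-0.91 to -0.34). The covariate therefore takes up part of any difference between these groups, and the 2 cannot be told apart by this fit. With the B cell level as a covariate the values were -0.44 (SE 0.12) and -0.46 (SE 0.15), with adjusted p = 0.262 and 0.201 in limma. With the epithelial level as a covariate, they were -0.35 and -0.24. The epithelial markers themselves did not separate the groups, with a summed log2 level of 10.3 to 10.5 in 5-ASA mice, 10.4 to 10.5 in Control mice and 10.2 to 10.4 in Sham mice.

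Tjp1, the scaffold, had the smallest p of any member, for 5-ASA against Sham. It ranged from 2.51 to 2.76 with a median of 2.65 in 5-ASA mice and from 2.59 to 2.83 with a median of 2.72 in Control mice, against 2.90, 2.75, 3.00 and 2.85 in Sham mice. The lowest Sham mouse, Sham 2, lay just under the highest 5-ASA mouse, and the other 3 lay above all 5-ASA mice. 5-ASA against Sham gave -0.22 (SE 0.08, 95% interval -0.39 to -0.06), or -0.14 and -0.30 within the slides, and did not pass over all genes (adjusted p = 0.340 in limma). Control against Sham gave -0.16 (SE 0.08, adjusted p = 0.563 in limma), or -0.07 and -0.26 within the slides. 5-ASA against Control gave -0.06 (SE 0.07), or -0.08 and -0.05. The 5-ASA and Sham arrays share no row of a slide, and with the row as a covariate the difference of 5-ASA against Sham was -0.21 (SE 0.14, adjusted p = 1.000 in limma).

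Ocln, Tjp1 and Cldn3 varied together from mouse to mouse. After the group means were removed, Ocln and Tjp1 correlated over the 16 arrays with r = 0.77, Cldn3 and Ocln with r = 0.73 and Cldn3 and Tjp1 with r = 0.69. Cldn2 stood apart from them, with r = -0.23, -0.18 and -0.20 against Ocln, Tjp1 and Cldn3, and correlated with Cldn8 at r = 0.69. Of the 36 pairs of members, 6 had r over 0.5 and 2 had r under -0.5, and the median was 0.12. Cldn8 and Cldn15 ran opposite (r = -0.58), as did Cldn4 and Cldn7 (r = -0.56). The mouse 5-ASA 1 had both the lowest Cldn4 and the highest Cldn7 of all. Arrays share their scale and the makeup of the tissue, and these values are descriptions of the 16 arrays.

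Several members moved with the marker levels of other cells within groups. Ocln correlated at r = -0.75 with the neutrophil level and -0.61 with the proliferation level. Cldn2 and Cldn8 correlated at -0.60 and -0.50 with the smooth muscle level and at -0.62 and -0.66 with the surface colonocyte level. Cldn4 correlated at 0.71 and Cldn23 at 0.66 with the endothelial level. The mouse 5-ASA 1 had the lowest value of all mice for each of these, at -2.19, -0.73 and -0.32, and r without it was not computed. The part of these cells in the values of the members was not tested.

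**Figure D4:**
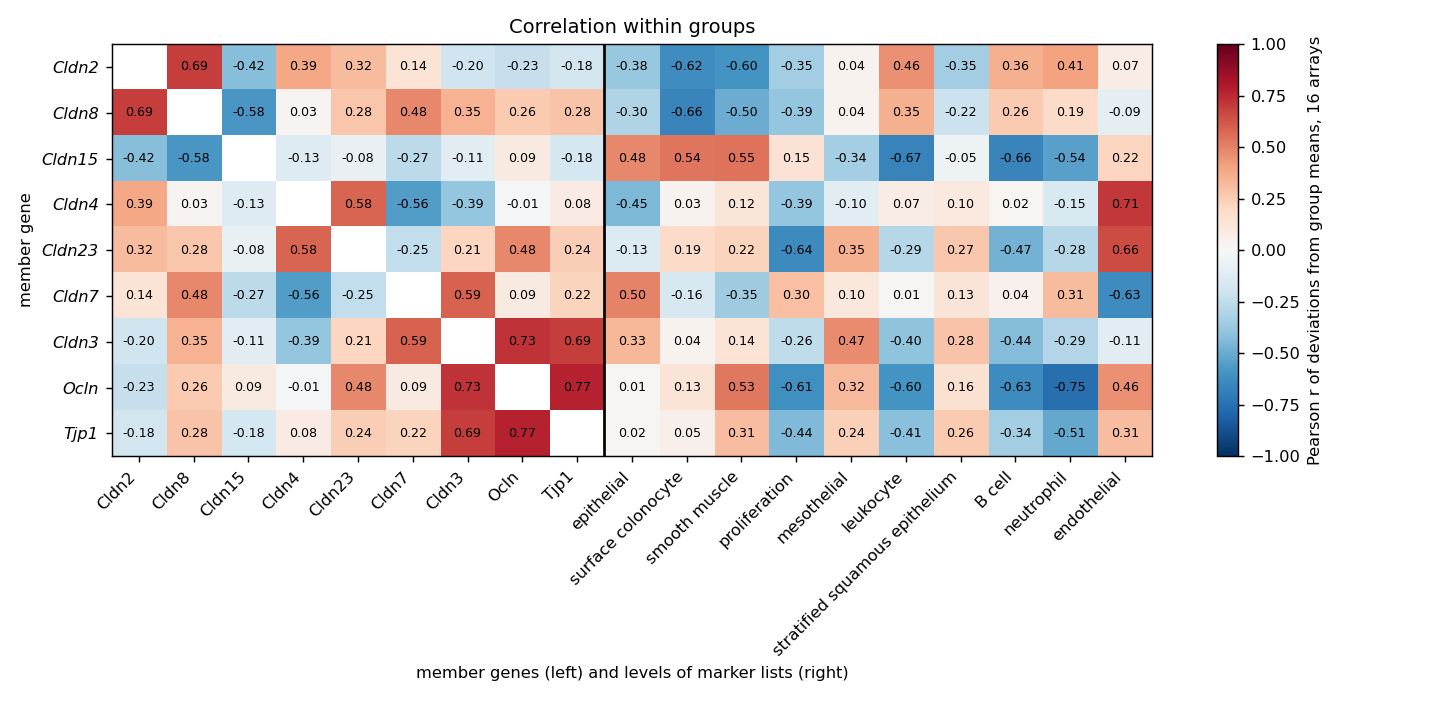
Pearson r of the deviations from the group means over 16 arrays, for the 9 tested members (rows) against one another (left of the line) and against the levels of 10 marker lists (right of the line), in colour and as numbers. Ocln, Tjp1 and Cldn3 form a red corner with r from 0.69 to 0.77, and Cldn2 and Cldn8 a pair with r = 0.69.

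The sequences upstream of the 3 genes that varied together are printed with that of Cldn2, which had negative r with all 3. Each is the 250 bases before the transcription start, 5′ to 3′ on the gene's own strand, from RefSeq on GRCm38.p6, and 8 of the 10 members had such a window. For Ocln, which has 2 annotated starts, the window of the upstream one is shown. Capitals mark 5 motifs, searched on both strands. The GC box is GGGCGG, the motif of Sp factors. The E-box of the Snail repressors is CACCTG. The AP-1 site is TGANTCA. The site of the CDX factors is TTTATG. The TATA box is TATAAA.
Ocln, chr13:100552719-100552968, minus strand: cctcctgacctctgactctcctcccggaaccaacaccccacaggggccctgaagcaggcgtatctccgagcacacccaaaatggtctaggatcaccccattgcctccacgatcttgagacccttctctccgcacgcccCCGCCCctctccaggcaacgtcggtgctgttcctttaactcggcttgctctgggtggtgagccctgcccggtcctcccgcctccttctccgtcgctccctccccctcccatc
Tjp1, chr7:65371245-65371494, minus strand: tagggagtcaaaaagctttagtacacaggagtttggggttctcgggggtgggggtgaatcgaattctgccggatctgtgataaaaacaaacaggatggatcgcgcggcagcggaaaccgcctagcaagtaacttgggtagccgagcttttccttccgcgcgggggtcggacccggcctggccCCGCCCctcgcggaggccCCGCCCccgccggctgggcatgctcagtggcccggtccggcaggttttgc
Cldn3, chr5:134985964-134986213, plus strand: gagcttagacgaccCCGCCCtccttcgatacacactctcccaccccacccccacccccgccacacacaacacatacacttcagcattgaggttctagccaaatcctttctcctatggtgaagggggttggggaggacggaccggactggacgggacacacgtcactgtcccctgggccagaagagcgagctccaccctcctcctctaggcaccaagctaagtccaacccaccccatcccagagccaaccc
Cldn2, chrX:139800558-139800807, plus strand: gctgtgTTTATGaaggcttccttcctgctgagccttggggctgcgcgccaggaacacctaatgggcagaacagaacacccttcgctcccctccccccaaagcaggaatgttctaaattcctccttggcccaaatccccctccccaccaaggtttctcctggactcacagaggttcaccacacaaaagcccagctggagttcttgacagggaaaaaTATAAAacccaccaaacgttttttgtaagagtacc
The windows of Ocln, Tjp1 and Cldn3 hold 1, 2 and 1 GC boxes and none of the other 4 motifs. The window of the other Ocln start, which is not printed, also holds a GC box, and 2 E-boxes that begin 213 and 68 bases before that start. That of Cldn2 holds no GC box but has a CDX site that begins 244 bases and a TATA box that begins 35 bases before the start, and these do not overlap. Of the 8 members with a window, 7 hold a GC box in at least 1 of their windows. Among 32536 promoter windows of the same length, 33.0% hold a GC box, 17.3% the E-box, 6.73% the AP-1 site, 10.8% the CDX site and 12.3% the TATA box. These matches are descriptions of the letters and not of bound sites.

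The genes whose level over the 16 arrays was most like that of a member, among all 24541, are named here for 8 members, 3 for each. For Ocln they were Kansl3 (r = 0.95), Entpd5 (0.92) and Entpd2 (0.92), and for Tjp1 Sbds (0.93), Acap2 (0.90) and Garre1 (0.87). For Cldn3 they were Tspan1 (0.94), Ndufa1 (0.92) and Tspan3 (0.91), and for Cldn7 Stap2 (0.91), Calml4 (0.90) and Dstn (0.89). For Cldn2 they were Agtrap (0.92), Scmh1 (0.90) and Strn4 (0.90), and for Cldn15 Rhbdl3 (0.93), Kcnh3 (0.92) and Slc35a1 (0.92). For Cldn4 they were Zmym4 (0.93), Vill (0.92) and Fosl1 (0.89), and for Cldn8 Capn8 (0.90), Epb41l4b (0.88) and Plekha6 (0.87).

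The labels give each mouse a diarrhea score at day 28, which was at most 0.5 in 5-ASA mice and reached 1.5 in Control mice. Over the 12 DSS mice, 0 of 9 members were related to the score after adjustment over the 9 relations. Cldn15 had Pearson r = -0.54 (permutation p = 0.101, adjusted 0.454) and Spearman rho = -0.62 (permutation p = 0.0321, adjusted 0.219). Cldn8 had r = 0.45 (permutation p = 0.153, adjusted 0.456) and rho = 0.59 (permutation p = 0.0487, adjusted 0.219), and Cldn4 had r = 0.50 (permutation p = 0.0747, adjusted 0.454) and rho = 0.43 (permutation p = 0.165, adjusted 0.432). Without the 2 mice farthest from the median score, Control 3 and Control 4, r was -0.23 for Cldn15, 0.53 for Cldn8 and 0.27 for Cldn4. The second of these was 1 of 4 mice at the same distance.

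Within the Control group, Cldn4 followed the score with r = 0.83, at the smallest p that an exact permutation of these 6 tied scores can give (two-sided exact p = 0.0333, adjusted 0.3). Within the 5-ASA group it had r = 0.25 (exact permutation p = 0.667), where the smallest possible p was 0.133. The 3 Control mice with a score of at least 1 (Control 3, 4 and 6) had the 3 lowest Ocln values of their group, at 1.36, 1.08 and 1.22, and the 3 highest Cldn2 values, at 2.37, 2.66 and 2.96. The other Control mice had 1.67, 1.42 and 1.64 for Ocln and 1.97, 2.06 and 2.34 for Cldn2. Within Control, rho with the score was -0.74 for Ocln and 0.74 for Cldn2, both with an exact two-sided permutation p = 0.133 (adjusted 0.240). Cldn3 had the same rho as Ocln, with the same p. Cldn7 had a higher rho than Cldn2, at 0.83 (exact two-sided permutation p = 0.0667, adjusted 0.240). In the 5-ASA group Ocln ran the other way (r = 0.65, exact permutation p = 0.267), and the difference between the groups was not tested. Control 4 and Control 6 also had the lowest smooth muscle levels of all mice, at -0.94 and -0.97 against -0.42 to 0.86 in Sham mice. Control 4 had the highest leukocyte and neutrophil levels of all mice, at 1.67 and 1.11. Among the Control arrays, only those of Control 3 and Control 6 lay in the second row of a slide. On each of them 56.8% of spots were well above background, against 64.4% to 65.2% on the other Control arrays. The part of array row and tissue makeup in these relations to the score was not tested.

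**Figure D5:**
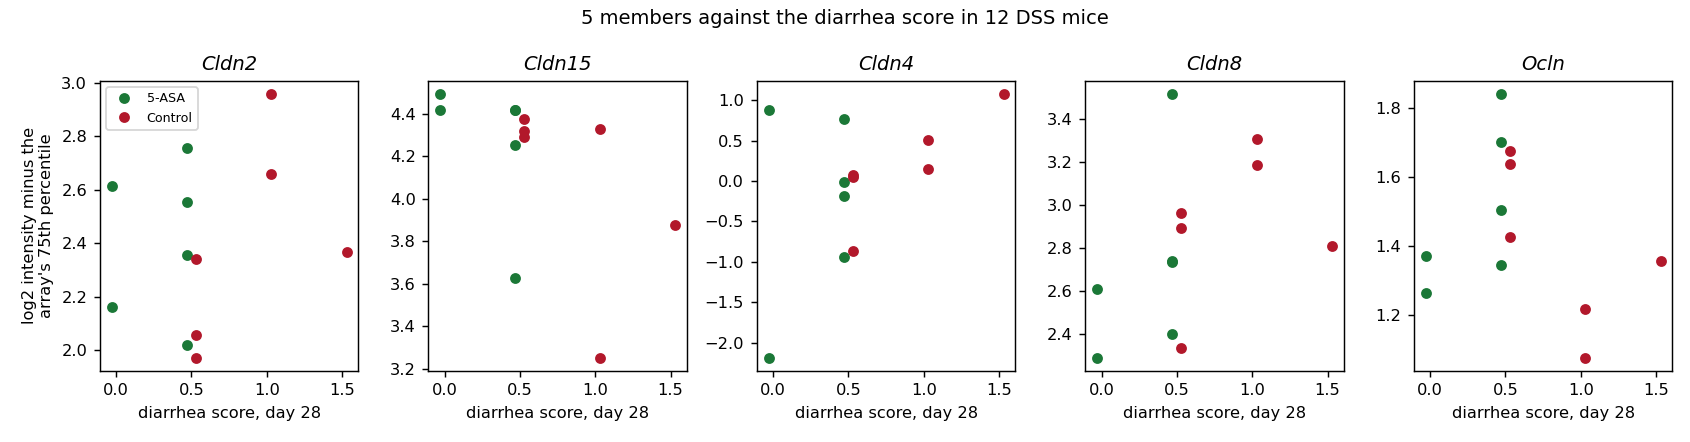
Levels of Cldn2, Cldn15, Cldn4, Cldn8 and Ocln (log2 intensity minus the 75th percentile of the array) against the diarrhea score at day 28, for 6 5-ASA and 6 Control mice, whose points are shifted slightly apart. The Control mice with scores of 1 and 1.5 have the lowest Ocln of their group, and no relation over the 12 mice passed the adjustment.

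Genes that act with the members did not pass over all genes either: 0 of the 98 tested genes of 6 further lists did in any comparison. The lists were put together with earlier results of these data known. Of 22 other claudins and claudin-like genes on the array, 11 were tested, and 8 of 11 were lower in Control than in Sham mice, beside 50.3% of all genes, with a median difference of -0.36. Several were dim, such as Cldn10, Cldn13 and Cldn17, which were lower, and Cldn11, which was higher. These were well above background on a larger share of Sham than of Control arrays. The filter can keep such genes through the Sham mice, so this count is no test of direction. Cldn5, the claudin of endothelial junctions, differed by -0.46 (SE 0.19) for Control against Sham and by 0.35 (SE 0.17) for 5-ASA against Control. Cldn10, an ion channel claudin, was well above background in 1 of 6 5-ASA mice, 4 of 6 Control mice and 4 of 4 Sham mice. Its fitted differences of -0.73 (SE 0.31) for Control against Sham and -1.16 (SE 0.31, adjusted p = 0.340 in limma) for 5-ASA against Sham include these dim values, so their sizes are not well measured. The 5-ASA arrays had a lower share of all spots well above background too (53.0% to 57.7%, against 59.8% to 64.4% on Sham arrays), and its part in the counts for Cldn10 and Cldn13 was not tested. Cldn13, a mouse claudin, was well above background on 0 of 6 arrays in 5-ASA mice, 1 of 6 in Control mice and 3 of 4 in Sham mice. Its fitted means were -6.42 in 5-ASA and -4.72 in Sham mice. The difference of -1.70 (interval -2.93 to -0.46) did not pass over all genes (adjusted p = 0.340 in limma). It includes dim values, so its size is not well measured. Cldn22 differed by 0.95 (SE 0.42) for 5-ASA against Control. It was dim, well above background on 5 of 6 Control arrays, and lowest in Control 4 and Control 6 (-5.51 and -5.75). The other Control mice lay between -4.34 and -3.07, and the 5-ASA mice between -4.11 and -3.07.

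Among 13 other tight junction membrane proteins, 9 were lower in Control than in Sham mice, beside 50.3% of all genes. In 5-ASA mice 8 were higher than in Control mice, beside 49.5% of all genes. Cxadr, an adhesion protein and virus receptor, differed by -0.34 (SE 0.15) for Control against Sham and by -0.23 (SE 0.15) for 5-ASA against Sham. Ildr1, a protein of junctions where 3 cells meet, differed by 0.26 (SE 0.14) for Control against Sham and by -0.25 (SE 0.13) for 5-ASA against Control. Marveld2, of the same junctions, differed by 0.16 (SE 0.10) for 5-ASA against Control, and F11r, an adhesion molecule, by -0.17 (SE 0.08) for 5-ASA against Sham.

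Of 27 tested scaffolds and polarity proteins, 18 were lower in Control than in Sham mice, beside 50.3% of all genes. Prkcz, a polarity kinase, differed by -0.56 (SE 0.23) for Control against Sham and by 0.49 (SE 0.20) for 5-ASA against Control. Arhgef18, an exchange factor for RhoA at junctions, differed by -0.15 (SE 0.07) for Control against Sham and by -0.27 (SE 0.07, adjusted p = 0.340 in limma) for 5-ASA against Sham, with no overlap of the groups in either. Pard6b, a polarity adaptor, differed by -0.29 (SE 0.14) for 5-ASA against Control and by -0.41 (SE 0.15) for 5-ASA against Sham, without overlap in the second. Over all genes, 0.693% lay wholly below Sham in Control mice and 0.803% did so in 5-ASA mice. In the other direction, Ybx3 of the same list lay above all Sham mice in every Control mouse, where 3.32% of all genes did not overlap in either direction.

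Of 25 tested regulators of junctions, 11 were higher and 14 lower in Control than in Sham mice, where 50.3% of all genes were lower. Cdx2, an intestinal transcription factor, differed by 0.62 (SE 0.32) and the GTPase Rac1 by 0.20 (SE 0.11) for Control against Sham. Klf4, a factor of differentiated colonocytes, differed by -0.34 (SE 0.12) and the repressor Zeb2 by 0.26 (SE 0.12) for 5-ASA against Control. Snai2, a repressor of junction genes, differed by 0.48 (SE 0.18) and Hnf4a, an epithelial transcription factor, by -0.15 (SE 0.08) for 5-ASA against Sham.

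Adherens junctions and desmosomes hold the cells together below the tight junction. Of 13 tested adherens junction genes, 8 were lower in Control than in Sham mice, beside 50.3% of all genes. Of 9 tested desmosome genes, 8 were lower in 5-ASA than in Control mice, where 49.5% of all genes were higher. Against Sham mice, 8 of the 9 were lower in 5-ASA mice. The median differences of the desmosome genes were small, at -0.11 and -0.09, against -0.00168 and -0.00341 over all genes. The actin linker Actn4 differed by 0.24 (SE 0.11) and E-cadherin, Cdh1, by -0.18 (SE 0.09) for Control against Sham. For 5-ASA against Sham, Cdh1 differed by -0.18 (SE 0.09) and the linker Afdn by -0.31 (SE 0.14), and for 5-ASA against Control Actn4 differed by -0.15 (SE 0.10) and Actn1 by 0.18 (SE 0.13). The desmosomal cadherin Dsc2 differed by 0.32 (SE 0.14) and the plaque protein Evpl by -0.28 (SE 0.17) for Control against Sham. Jup differed by -0.25 (SE 0.12) and Pkp2, another plaque protein, by -0.18 (SE 0.10) for 5-ASA against Control, and Evpl by -0.28 (SE 0.17) and Ppl by -0.28 (SE 0.19) for 5-ASA against Sham.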

How the data were processed

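Total RNA (0.2 µg per the labels' protocols) from the colon of 16 mice was measured on 1-colour Agilent arrays. The scanner intensity values were extracted by the authors with Feature Extraction 10.10.1.1, which subtracted background and removed spatial trends within each array, with probe positions on mm9, per the file headers. They were not normalised between arrays when deposited. Flags for spots well above background, saturated or non-uniform come from the same software, per the file headers.

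Levels were computed as log2 of the processed intensity minus the 75th percentile of the array. Control spots and flagged outlier spots were left out, spots of a probe were averaged, and 35079 of 55681 probes entered, those flagged as well above background on 4 or more of the 16 arrays. Each gene was represented by its brightest kept probe, which gave 24541 genes. Genes of 27656 probes were named through their accession in RefSeq (GRCm38.p6), 1711 of them with an updated symbol, and 28025 probes kept the name in the file. One limma model with 3 groups was fitted over all mice and genes (limma 3.58.1 and statmod 1.5.0 in R 4.3.3), with Benjamini-Hochberg adjustment and a threshold of 0.05. Intervals are at 95%. A list level is the log2 of the summed linear levels where called summed, and the mean log2 level of its genes relative to their means over all arrays otherwise. On simulated data with 24476 genes for Control against Sham, 69% of 100 genes changed by 1 and 87% of 100 changed by 2 on the log2 scale were called, with 7 false calls. Scores were related to levels with permutation tests (scipy 1.17.1; 100000 resamples over 12 mice, exact within groups) and adjusted over 9 members, since Cldn1 was not tested.

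The authors' deposited value table holds log2 values. They follow the scanner values once each probe is set relative to its median over the Sham arrays (r from 0.996 to 1.000), so its scale, centring and direction are known, while its scaling between arrays is not given in the sources used here. Its column medians were 0.223, 0.177, 0.135, 0.136, 0.113 and 0.111 for 5-ASA 1 to 6, -0.0323, -0.0616, 0.206, -0.188, -0.0434 and 0.147 for Control 1 to 6, and -0.000851, -0.0461, 0.0709 and -0.00654 for Sham 1 to 4. It was used as an alternative.

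The alternatives were another background correction (normexp, offset 50), other scalings, no filter or a filter on all 16 arrays, the mean of the probes of a gene, slide and array row, probes outside the outer 12 spot rows, replicate number, the compared groups alone, tissue marker levels as covariates, and leaving out each mouse. The members and the lists were chosen with earlier results of these data known. All members are named. From every other pathway list the text takes the genes that passed, or else those with the 2 smallest p in each comparison, and for the members described at length the 3 genes with the highest r. Cldn11, Cldn17 and Ybx3 are named besides, for their detection or their lack of overlap. Each array is a separate mouse, per the labels, and no technical replicates enter.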

Additional observations from a re-analysis of the deposited data

Results flagged for a closer look

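In 5-ASA 4, Cldn8 was 3.517, while the other 5-ASA mice lay between 2.29 and 2.74. Its gap to the nearest of them was 0.634 of the range of the group, above the critical value of Dixon's test for 6 samples. Cldn15 was 3.628 in the same mouse, while the others lay between 4.25 and 4.49, and the gap was 0.722 of the range. Among 27 groups checked for the 9 tested members, these 2 were over the critical value, and chance alone marks about 5% of groups. Without 5-ASA 4, the difference of 5-ASA against Sham was 0.66 for Cldn15 and -0.13 for Cldn8.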

How the results depend on the processing

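Under 34 other settings, 16 of which left out 1 mouse each, 0 members passed over all genes in any comparison, and the smallest adjusted p of a member was 0.117. Of 486 member differences under the 18 settings that kept all mice or a whole slide, 445 kept their sign and 41 did not. Of 432 with 1 mouse left out, 407 kept it and 25 did not. A difference cannot move when the mouse left out belongs to the group outside the comparison, or when only the compared groups are fitted. Part of the kept signs in both counts was therefore fixed in advance. The differences that changed sign in some setting were at most 0.46 in size as first reported. The spots of Cldn7 and Cldn3 were bright but not flagged as saturated, and whether their brightness narrowed their spread was not tested. Cldn1 lay near the background. The row of the array holds no mixture of 5-ASA and Sham mice, so row and group were separated there only through the Control mice. The causes of the changes listed here were not tested.

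Genes called over the whole array, 13 for Control against Sham, numbered 8 with the array row, the epithelial level or the replicate block, 7 with the proliferation level and 6 with only the 2 groups. They were 4 and 1 within slides 1 and 2, and 0 without the outer 12 spot rows or with the filter on all 16 arrays. For 5-ASA against Control, with 0 genes called, 2952 were called without the filter on dim probes (34947 genes tested, 2902 of the calls higher in 5-ASA), 7 with the row, 2 with the smooth muscle level and 1 within slide 2. For 5-ASA against Sham, with 13 called, the count was 3 with the row, 2 and 4 within slides 1 and 2, and 0 without the outer spot rows or with the filter on all arrays. Leaving out a mouse gave 9 to 14, 0 and 10 to 25 genes for these comparisons, with 25 without 5-ASA 4.

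The replicate numbers of the labels did not pair the mice: deviations of same-numbered mice correlated at -0.21 to 0.61 for Control against Sham, with the own number best in 1 of 4 pairs, at 0.03 to 0.23 (2 of 6) for 5-ASA against Control and at -0.20 to 0.16 (2 of 4) for 5-ASA against Sham. With the replicate block, 8, 0 and 10 genes were called and 0 members. It turned Cldn2 to -0.036 for Control against Sham and to -0.018 for 5-ASA against Sham, and Cldn8 to -0.0028 for 5-ASA against Sham.

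For Control against Sham, the following differences changed sign. Cldn2 was -0.0456 within slide 1, -0.0636 with the row and -0.0485 with the smooth muscle level. Cldn3 was 0.0055 within slide 1. Cldn4 was 0.0631 with normexp, 0.0259 with the mean of probes, 0.31 within slide 2, and 0.0491, 0.37 and 0.47 with the smooth muscle, epithelial and proliferation levels. Cldn23 was 0.24 within slide 2, and 0.0254, 0.0212 and 0.28 with those levels. With 1 mouse left out, Cldn2 ranged from -0.041 to 0.16, Cldn4 from -0.22 to 0.19 and Cldn23 from -0.17 to 0.16.

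For 5-ASA against Control, Cldn2 was -0.0008 with normexp, -0.012 within slide 2, -0.25 with the row and -0.0214 with the epithelial level. Cldn3 was -0.0037 and -0.0094 with quantile and median scaling, -0.0171 within slide 2, and -0.0072 and -0.0453 with the smooth muscle and B cell levels. Cldn15 was -0.0391 and Ocln -0.0211 with the B cell level, and Cldn23 was 0.0027 within slide 2. With 1 mouse left out, Cldn2 ranged from -0.0665 to 0.13 and Cldn3 from -0.0301 to 0.039.

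For 5-ASA against Sham, Cldn2 was -0.32 with the row. Cldn3 was 0.0339 and Cldn7 0.0782 within slide 1, and Cldn7 was 0.0584 with the mean of probes. Cldn4 was 0.31 and Cldn23 0.24 within slide 2, and they were 0.13 and 0.20 with the proliferation level, with which Ocln was 0.0153. Cldn8 was -0.001 with quantile scaling, -0.13 within slide 2 and -0.10 with the row. With 1 mouse left out, Cldn7 ranged from -0.0666 to 0.0141, Cldn8 from -0.18 to 0.25 and Cldn23 from -0.30 to 0.0236. The B cell and proliferation levels as covariates were chosen after the data were seen.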
